A study of Mus musculus with 40 samples.

Results

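The 10 genes described here encode receptor tyrosine kinases that are used to tell melanoma states apart. They are Axl, Mertk and Tyro3 of the TAM family, Egfr and Erbb3 of the ErbB family, Kit, Met, the platelet-derived growth factor receptors Pdgfra and Pdgfrb, and the fibroblast growth factor receptor Fgfr1. They were taken as a named list by matching the Ensembl identifiers of the count table to mouse gene symbols, and all 10 were found among 51789 genes. Their RNA was measured by QuantSeq, which counts reads from the 3′ end of transcripts, in 40 libraries of cultured mouse melanoma cells, 2 libraries for each of 20 groups.

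The study asked what the circadian transcription factor Bmal1 (gene Arntl) does in melanoma cells. B16-F10 cells came as a control clone (Ctrl) and a Bmal1 KO clone, so each of these groups is a single clone. YUMM2.1 cells come from a tumour whose alleles include Braf V600E, Cdkn2a+/- and a heterozygous stabilised β-catenin allele (Bcat STA/+), and YUMM1.7 cells from a tumour whose alleles include Braf V600E and Cdkn2a-/-. aC3 is a single Bmal1-null clone made from YUMM2.1 by CRISPR editing. YUMM2.1, aC3 and YUMM1.7 cells each carried a lentiviral empty vector (EV), wild-type Bmal1 (WT) or dHLH, a Bmal1 that lacks the DNA-binding domain. The YUMM2.1 cells of these 3 kinds also carried a control hairpin (shNC) or a hairpin against the myosin heavy chain gene Myh9 (shMyh9#2 or shMyh9#4). The YUMM2.1 and YUMM1.7 groups keep their own Arntl gene, and the aC3 groups share its loss.

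Receptor tyrosine kinases are membrane proteins that bind a growth factor outside the cell, pair up, and phosphorylate tyrosines inside it, which recruits adaptors that feed the MAPK and PI3K pathways. In melanoma, Kit and Erbb3 are commonly associated with differentiated, melanocytic or neural-crest-like cells, whereas Axl, Egfr, Pdgfrb and Fgfr1 are commonly associated with undifferentiated, mesenchymal-like cells and with tolerance of BRAF inhibitors. The TAM receptors share the ligand Gas6, Pros1 is a ligand of Mertk and Tyro3, and Met binds hepatocyte growth factor.

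Library totals ran from 3643332 to 22970049 counts. Levels below are CPM (a count scaled to library size) after TMM scaling of all 40 libraries, and fold changes are log2 values from edgeR fits on the counts, positive where the group named first is higher. The marker genes separated the lines. Summed melanocytic markers reached 19753 to 26035 CPM in B16-F10 and 10.7 to 626 CPM in the YUMM-derived lines, where Mlana and Tyrp1 had no count in any library. In the YUMM-derived lines 3 of the 7 markers exceeded 1 CPM in a library. The marker with the highest mean was Sox10 in YUMM2.1 (12.3 to 541 CPM) and in aC3 (441 to 610 CPM). Summed fibroblast markers were 2459 to 2680 CPM in YUMM1.7, of which Col1a2 made up 1890 to 2142 CPM, against 159 to 854 CPM in YUMM2.1 and 1.82 to 10.9 CPM in B16-F10. Arntl did not separate B16-F10 Bmal1 KO (13.3 and 11.5 CPM) from Ctrl (15.2 and 10.7 CPM), and a 3′ count does not read an edit elsewhere in the transcript. In YUMM2.1 cells without a hairpin it did not show the WT construct either, at 15.9 and 13.9 CPM in EV against 13.9 and 18.3 CPM in WT. In aC3 it was lower with WT, at 18.2 and 17.5 CPM against 33.1 and 30.5 CPM in aC3-EV. With WT it lay above EV in YUMM1.7 (14.7 and 12.5 CPM against 8.46 and 8.61 CPM). The same held in YUMM2.1 with shNC (35.5 and 34.2 CPM against 31.3 and 26.8 CPM). YUMM2.1-dHLH without a hairpin held 51.1 and 35.4 CPM. Whether a 3′ count reads the lentiviral transcript was not tested. Myh9 in the hairpin experiment was 665 to 993 CPM with shNC, 229 to 291 CPM with shMyh9#2 and 465 to 678 CPM with shMyh9#4. The YUMM2.1-EV and YUMM2.1-WT libraries without a hairpin were each most like the same-numbered library of the other group. YUMM2.1-EV replicate 1 correlated best with YUMM2.1-WT replicate 1 (r = 0.992, across 16619 genes), YUMM2.1-EV replicate 2 correlated best with YUMM2.1-WT replicate 2 (r = 0.990), and the 2 YUMM2.1-EV libraries correlated at r = 0.981. Same-numbered libraries also deviated from their group means together when YUMM2.1-dHLH was included (r 0.181 to 0.393 over 3 of 3 pairs of groups). An earlier account of these data raised an exchange of labels, from a match to values published with the study. That match was not repeated here. A shared replicate and an exchange of the labels of YUMM2.1-EV replicate 2 and YUMM2.1-WT replicate 1, called the doubted libraries here, cannot be told apart from the correlations above. Receptor results that use either are given as labelled, followed by what changed with the 2 labels exchanged and with both libraries left out, and the lists of other genes are given as labelled.

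Promoter sequence of 3 receptors is shown because Bmal1 is a transcription factor that binds E-boxes, and because Axl and Mertk moved in opposite directions below. Within 250 bases before the RefSeq start, the E-box CACGTG was present in 6.02% of 32851 mouse promoters and in Met alone of the 7 receptors with a promoter in the table. The AP-1 motif TGANTCA was present in 6.75% of promoters and again in Met alone of the 7. The GC box GGGCGG was present in 32.7% of promoters and in 6 of the 7, all but Pdgfra. Letters were searched on both strands, and a match is a description of the letters only. Met lies at chr6:17463800-17573980 (GRCm38, plus strand). The stretches below, 30 bases each on the plus strand of GRCm38.p6 from RefSeq, lie 126 and 54 bases before the RefSeq start and within exon 1, in the untranslated region, of the GENCODE model. Capitals mark the motif.
Met E-box, chr6:17463819-17463848: gggacgaacagaCACGTGctggggcgggta
Met AP-1, chr6:17463892-17463921: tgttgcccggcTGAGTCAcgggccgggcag
The windows of Axl (minus strand of chr7) and Mertk (plus strand of chr2) are 250 bases long, hold no match to the E-box or AP-1 letters, and have GC boxes on either strand in capitals, 1 in Axl and 3 in Mertk.
Axl, chr7:25788734-25788983: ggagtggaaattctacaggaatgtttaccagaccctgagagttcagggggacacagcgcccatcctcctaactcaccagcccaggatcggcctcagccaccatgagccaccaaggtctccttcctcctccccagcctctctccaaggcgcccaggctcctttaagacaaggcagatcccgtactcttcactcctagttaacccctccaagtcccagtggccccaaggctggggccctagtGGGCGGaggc
Mertk, chr2:128698665-128698914: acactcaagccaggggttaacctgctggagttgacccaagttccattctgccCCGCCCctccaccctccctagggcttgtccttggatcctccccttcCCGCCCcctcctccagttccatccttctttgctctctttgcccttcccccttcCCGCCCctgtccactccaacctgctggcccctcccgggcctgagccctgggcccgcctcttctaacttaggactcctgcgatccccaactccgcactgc

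Each line had its own receptor pattern. B16-F10 cells held Met as their most counted receptor of the 10 and had little Axl or Mertk. YUMM-derived cells held high Axl and Mertk. YUMM1.7 libraries held more Pdgfra, Pdgfrb and Fgfr1 than any YUMM2.1 library and almost no Erbb3. Kit had no count in 38 of the 40 libraries.

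**Figure D1:**
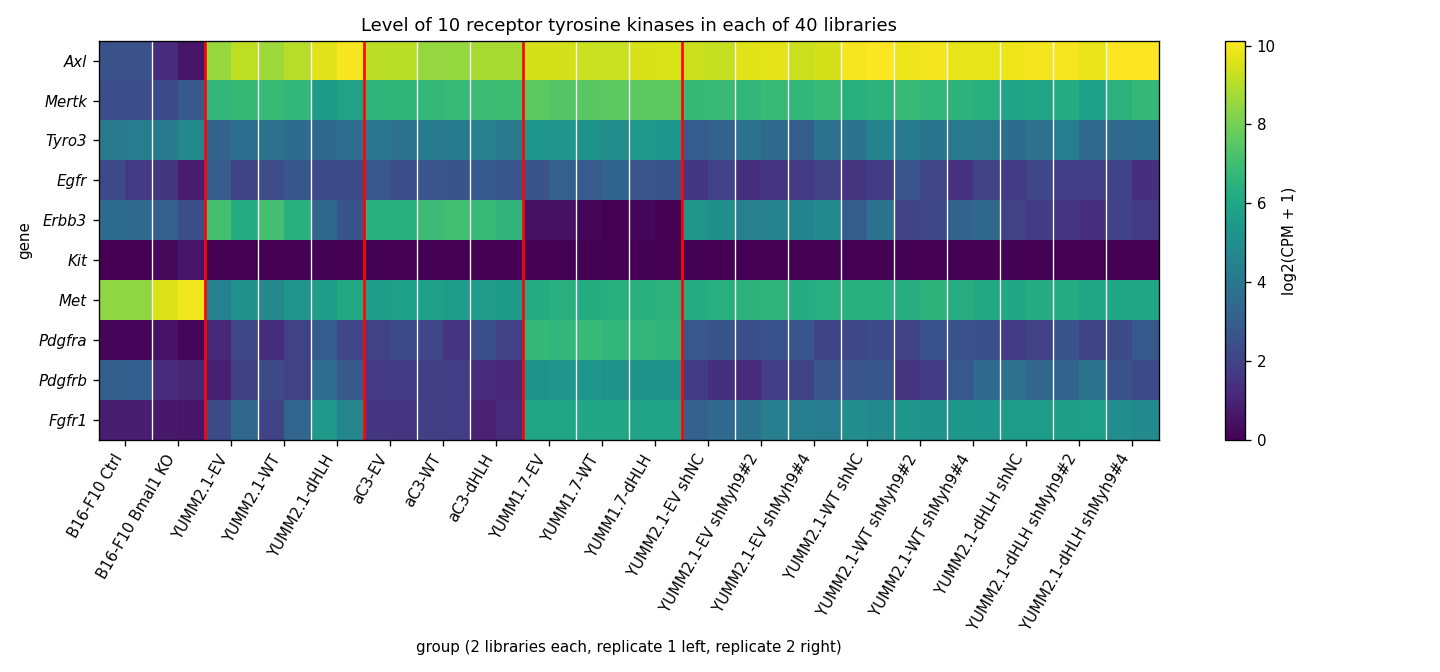
Each row is a receptor and each column a library, coloured by log2(CPM + 1), with the 20 groups along the x axis, white lines between groups and red lines between the B16-F10, YUMM2.1, aC3, YUMM1.7 and hairpin sets. Met is brightest in B16-F10 (344 to 968 CPM), Axl is bright in every YUMM-derived library (365 to 1116 CPM), Pdgfra is bright in YUMM1.7 alone (94.3 to 112 CPM), and Kit is dark throughout.

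Axl (chr7:25757273-25788705, minus strand), a TAM receptor and a marker of the mesenchymal-like state, ranged over 36 YUMM-derived libraries from 365 to 1116 CPM with a median of 720 CPM. In B16-F10 it ranged from 0.479 to 4.67 CPM. The highest group was YUMM2.1-dHLH with shMyh9#4 (1106 ± 13.6 CPM, SD, n = 2), whose libraries overlapped those of the next group, YUMM2.1-WT with shNC (1056 ± 67.8 CPM). Mertk (chr2:128698956-128802894, plus strand) ran from 45.1 to 126 CPM in YUMM2.1 and aC3 cells, from 176 to 194 CPM in YUMM1.7 and from 3.71 to 6.04 CPM in B16-F10. The Gm14011 and Gm23172 gene models overlap it, and reads of overlapping genes may not be told apart. Tyro3 (chr2:119797733-119818104), the third TAM receptor, had its highest levels in YUMM1.7 (31.1 to 41.3 CPM), while B16-F10 (16.4 to 26.6 CPM) overlapped the YUMM2.1 and aC3 range of 6.78 to 22.0 CPM.

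Erbb3 (chr10:128567523-128589652), a receptor for neuregulins that needs a partner to signal, varied widely within the YUMM-derived lines. It ran from 1.55 to 138 CPM in the 30 YUMM2.1 and aC3 libraries. In the 6 YUMM1.7 libraries it was at most 0.374 CPM, and 2 of them had no count. Egfr (chr11:16752203-16918158), the receptor for epidermal growth factor and amphiregulin, was low in every line and lay between 0.719 and 8.58 CPM. The levels of Egfr in YUMM1.7 (5.08 to 8.58 CPM) overlapped those in aC3 (4.45 to 6.37 CPM). Egfros on the opposite strand overlaps Egfr, and Mir6917 overlaps Erbb3.

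Met, the receptor for hepatocyte growth factor, was counted in all 40 libraries, at 21.1 to 95.8 CPM in the YUMM-derived cells. Kit (chr5:75574916-75656722), the receptor for stem cell factor on which normal melanocytes depend, was counted in 2 libraries, both B16-F10 Bmal1 KO. Pdgfra (chr5:75152292-75198215) was 1.24 to 6.72 CPM in YUMM2.1 and aC3. Pdgfrb (chr18:61045150-61085061), a receptor of mesenchymal cells, was 35.4 to 39.3 CPM in YUMM1.7 and 0.830 to 13.9 CPM in YUMM2.1 and aC3. Fgfr1 (chr8:25513654-25575718) was 59.7 to 66.6 CPM in YUMM1.7, 0.527 to 0.824 CPM in B16-F10 and 0.882 to 52.6 CPM in YUMM2.1 and aC3. Gene models that overlap Pdgfra (Gm42802, Gm42803, Mir7025) and Fgfr1 (Gm16159) could share reads with them.

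Between the control groups of the lines, nearly all receptors differed wherever the lines had different origins. YUMM1.7-EV had higher Axl, Mertk, Tyro3, Met, Pdgfra, Pdgfrb and Fgfr1 than YUMM2.1-EV and far lower Erbb3. B16-F10 Ctrl had lower Axl, Mertk, Erbb3, Pdgfra and Fgfr1 than YUMM2.1-EV and higher Tyro3, Met and Pdgfrb. For the Bmal1-null clone aC3-EV against YUMM2.1-EV, no receptor passed the test as labelled. Of the 9 receptors tested, 8 passed at an adjusted p under 0.05 for YUMM1.7-EV against YUMM2.1-EV, where 37.1% of 15177 genes passed. For B16-F10 Ctrl, 8 of 9 passed against YUMM2.1-EV, where 54.3% of genes did, and 9 of 9 against YUMM1.7-EV, where 54.5% did. These comparisons share their control libraries. In bulk libraries, fewer cells of a type and less RNA per cell cannot be told apart.

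**Figure D2:**
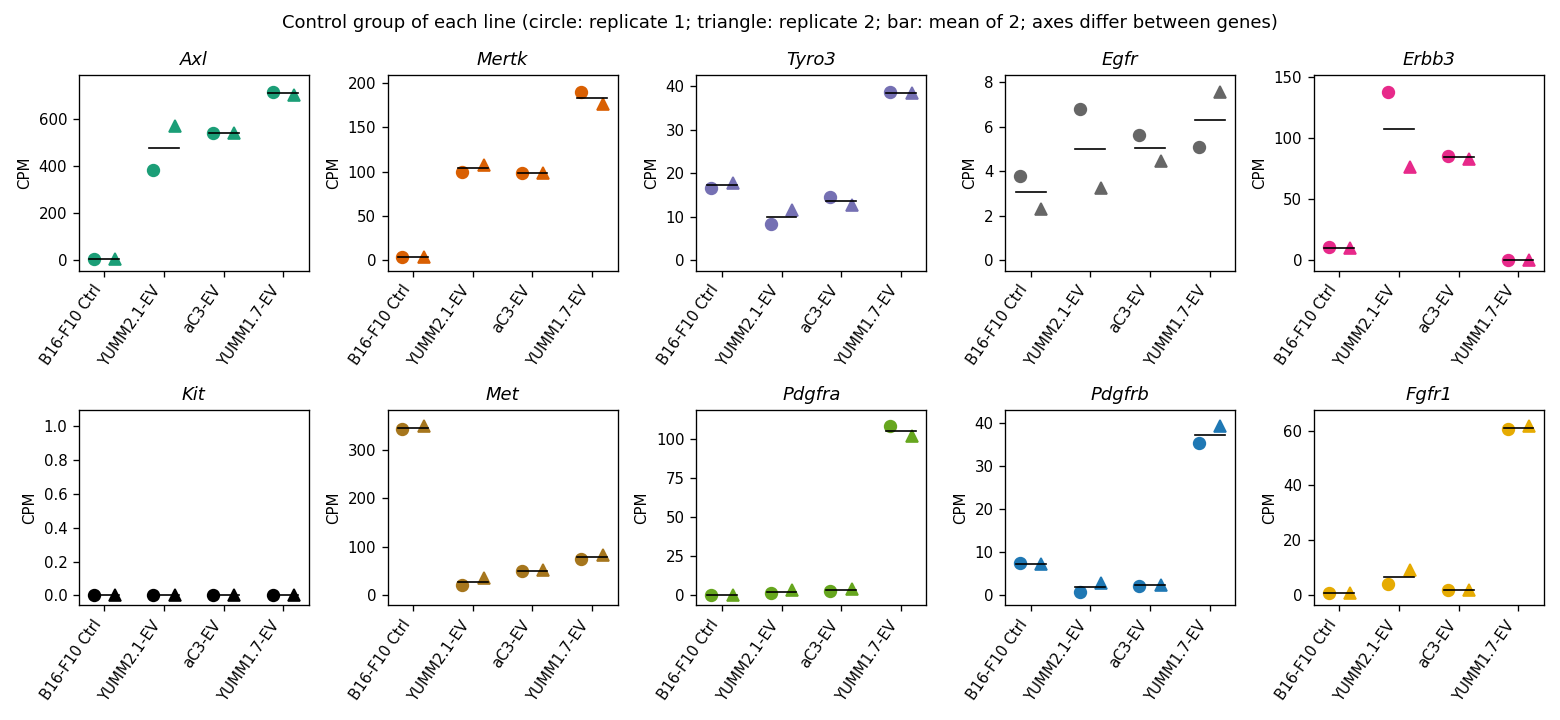
CPM of each receptor in the control group of each line (B16-F10 Ctrl, YUMM2.1-EV, aC3-EV, YUMM1.7-EV), 1 panel per gene with its own y axis, circles for replicate 1, triangles for replicate 2 and bars for the mean of 2. Met stands highest in B16-F10 Ctrl (344 and 349 CPM), and Pdgfra, Pdgfrb and Fgfr1 stand highest in YUMM1.7-EV (108 and 102, 35.4 and 39.3, 60.7 and 61.5 CPM).

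Pdgfra gave the largest rise in YUMM1.7-EV, from 1.24 and 3.45 CPM in YUMM2.1-EV to 108 and 102 CPM. The log2 difference was 5.54 (SE 0.30, edgeR adjusted p = 5.92e-07). Pdgfrb was 4.42 higher (SE 0.35, edgeR adjusted p = 7.88e-06) and Fgfr1 3.22 higher (SE 0.29, edgeR adjusted p = 1.74e-05), and in both the libraries did not overlap. Erbb3 went the opposite way, from 138 and 76.4 CPM in YUMM2.1-EV to 0.356 and 0.374 CPM in YUMM1.7-EV, or 4 counts in each library, a fitted log2 difference of -8.18 (SE 0.40, edgeR adjusted p = 2.81e-07). Summed fibroblast markers were also highest in YUMM1.7, as given above. Of the 4 tested here, 3 were higher and 1 lower in YUMM1.7-EV, where 37.1% of all genes passed. Sox10, which marks the neural crest lineage, was 0.0908 to 1.51 CPM in YUMM1.7 against 484 and 501 CPM in YUMM2.1-EV. Other markers did not all fall with it. Among 5 undifferentiated or neural crest state markers, 3 were higher and 2 lower in YUMM1.7-EV, with a median log2 change of 0.68. Among the 7 melanocytic markers, Sox10 included, 1 was lower and 0 higher. The part of all these markers in the differences was not tested. Axl passed by a small margin (714 and 700 CPM against 382 and 568 CPM, 0.56, SE 0.15, edgeR adjusted p = 0.0159) and lost the call without YUMM1.7-EV replicate 1 or YUMM1.7-EV replicate 2. With the doubted labels exchanged, and with both libraries left out, every receptor called for YUMM1.7-EV against YUMM2.1-EV kept its direction and passed, with Axl at 0.84 and 0.88.

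Axl and Mertk were far lower in B16-F10 Ctrl than in the YUMM control groups. Axl was 4.67 and 4.65 CPM in B16-F10 Ctrl, 382 and 568 CPM in YUMM2.1-EV and 714 and 700 CPM in YUMM1.7-EV. Against YUMM2.1-EV the log2 difference was -6.70 (SE 0.21, edgeR adjusted p = 4.95e-09). Mertk was 4.24 and 4.22 CPM in B16-F10 Ctrl and 99.9 and 108 CPM in YUMM2.1-EV, a log2 difference of -4.65 (SE 0.11, edgeR adjusted p = 1.55e-09), while Tyro3 was 0.78 higher in B16-F10 Ctrl (SE 0.18, edgeR adjusted p = 0.00435). Met differed in the other direction, by 3.61 against YUMM2.1-EV (SE 0.19, edgeR adjusted p = 1.91e-07) and 2.13 against YUMM1.7-EV (SE 0.18, edgeR adjusted p = 4.66e-06). Egfr passed in 1 of these comparisons, B16-F10 Ctrl against YUMM1.7-EV (-1.06, SE 0.39, edgeR adjusted p = 0.0436), and lost that call without B16-F10 Ctrl replicate 2, aC3-EV replicate 1, aC3-EV replicate 2 or YUMM1.7-EV replicate 2, and with DESeq2 (adjusted p = 0.0567). With the doubted labels exchanged, and with both libraries left out, every receptor called for B16-F10 Ctrl against YUMM2.1-EV kept its direction and passed, and Egfr was called lower as well (-0.87, edgeR adjusted p = 0.0336, and -1.18, edgeR adjusted p = 0.0155).

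For aC3-EV against YUMM2.1-EV, 0 of 9 receptors passed with edgeR, 3 had an unadjusted p under 0.05 and DESeq2 called Met and Fgfr1, while 1.75% of 15177 genes passed with edgeR. Met was 49.4 and 52.2 CPM in aC3-EV and 21.1 and 34.9 CPM in YUMM2.1-EV (0.87, SE 0.19, edgeR adjusted p = 0.0540). Fgfr1 was 2.06 and 1.95 CPM in aC3-EV and 4.07 and 9.27 CPM in YUMM2.1-EV (-1.70, SE 0.37, edgeR adjusted p = 0.0523). These values depend on the doubted YUMM2.1-EV replicate 2. With its label exchanged for that of YUMM2.1-WT replicate 1, Axl (0.46), Met (1.09) and Pdgfra (1.30) were called higher and Erbb3 (-0.70) and Fgfr1 (-0.87) lower in aC3-EV. With both libraries left out the same 5 were called, with Axl at 0.50, Met at 1.26, Pdgfra at 1.46, Erbb3 at -0.71 and Fgfr1 at -1.02, and Tyro3 (0.72) and Pdgfrb (1.47) were called higher as well. Removing YUMM2.1-EV replicate 2 alone gave the 7 calls too, while Met and Fgfr1 were also called without YUMM2.1-EV replicate 1.

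In YUMM2.1 cells, the construct without the DNA-binding domain came with a different set of receptors. Axl, Fgfr1 and Pdgfrb were higher in YUMM2.1-dHLH than in YUMM2.1-EV, by 1.96-fold, 5.09-fold and 4.93-fold, and Erbb3 and Mertk were lower, by 14.4-fold and 2.04-fold. All 5 had the same direction against YUMM2.1-WT, where Pdgfrb did not pass. Tyro3 and Egfr did not pass in either comparison. Of 9 receptors tested, 5 passed against YUMM2.1-EV, where 13.2% of 14323 genes passed, and 4 against YUMM2.1-WT, where 13% did. The median log2 change of the 9 was 0.97 against YUMM2.1-EV and that of all genes -0.01. The comparisons share the YUMM2.1-dHLH libraries.

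**Figure D3:**
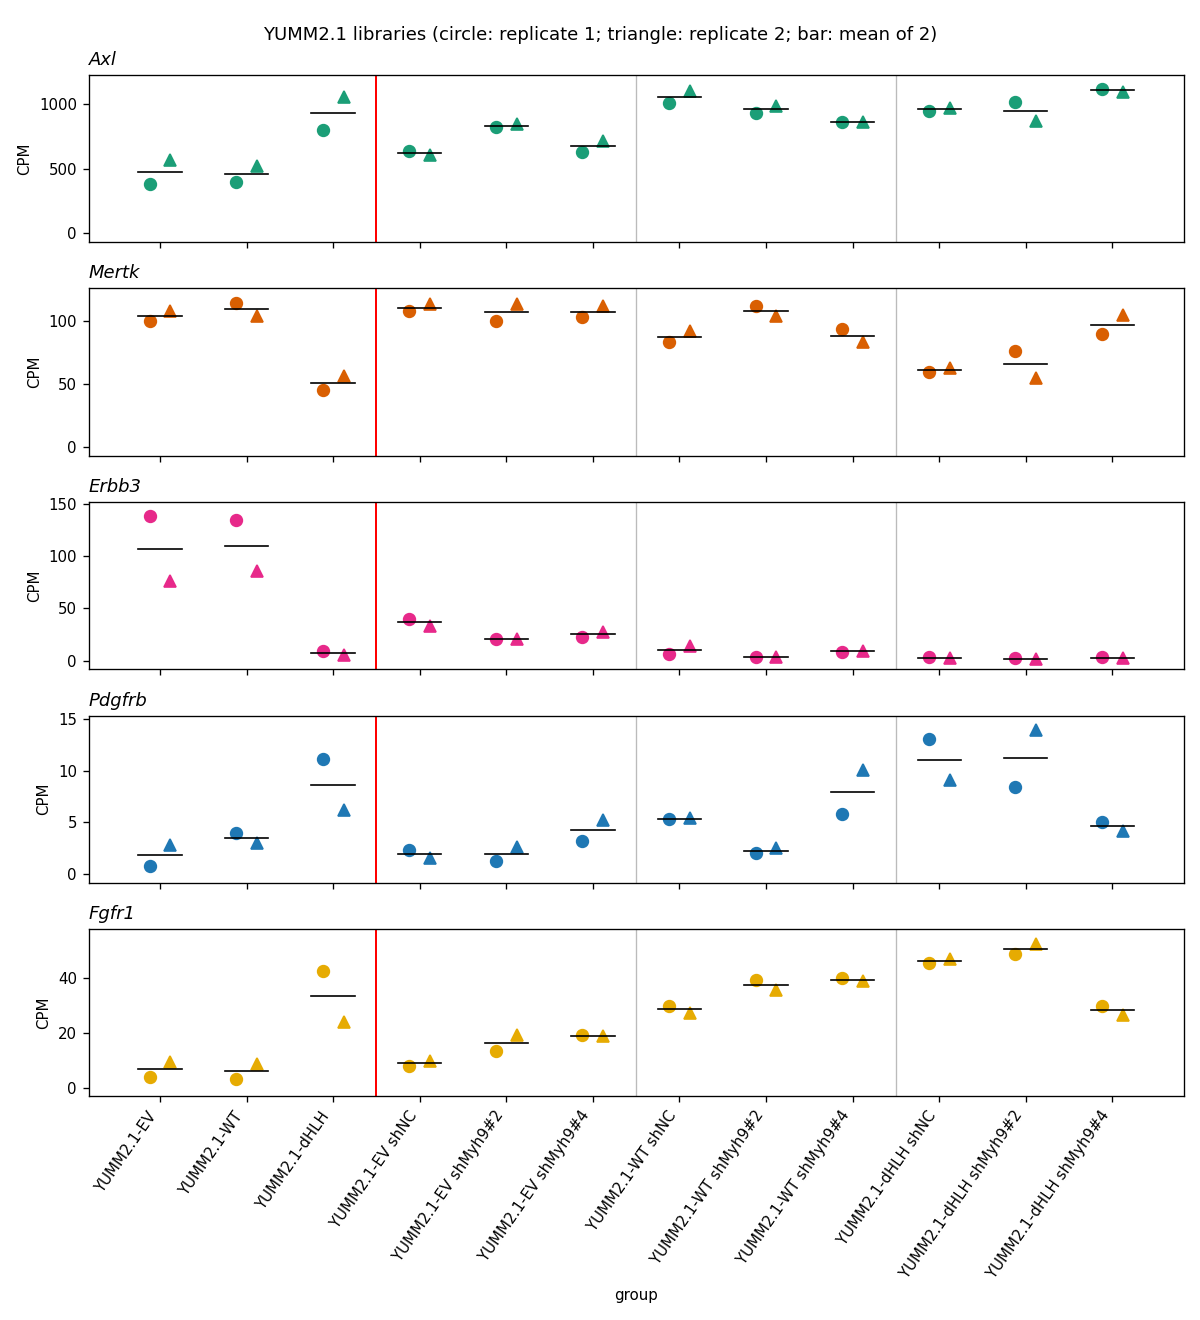
CPM of Axl, Mertk, Erbb3, Pdgfrb and Fgfr1 in the 12 YUMM2.1 groups, with circles for replicate 1, triangles for replicate 2, bars for the mean of 2, a red line between the libraries without and with a hairpin, and grey lines between EV, WT and dHLH cells. Erbb3 is highest in YUMM2.1-EV and YUMM2.1-WT without a hairpin (76.4 to 138 CPM) and is at most 9.46 CPM in every dHLH library, while Fgfr1 is at least 24.1 CPM in every dHLH library.

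Among the TAM receptors, Axl was 382 and 568 CPM with EV, 399 and 523 CPM with WT and 802 and 1055 CPM with dHLH. Both dHLH libraries lay above the other 4. The log2 change was 0.97 against YUMM2.1-EV (SE 0.24, edgeR adjusted p = 0.0398) and 1.02 against YUMM2.1-WT (SE 0.24, edgeR adjusted p = 0.0345). Mertk was 99.9 and 108 CPM with EV, 114 and 104 CPM with WT and 45.1 and 56.3 CPM with dHLH, so here the dHLH libraries were the lowest of the 6. Mertk changed by -1.03 against YUMM2.1-EV (SE 0.15, edgeR adjusted p = 0.00783) and by -1.10 against YUMM2.1-WT (SE 0.15, edgeR adjusted p = 0.00642). Their paralog Tyro3 lay at 8.30 to 12.6 CPM in all 6 libraries and its groups overlapped.

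Erbb3 gave the largest change of the 10. It was 138 and 76.4 CPM with EV, 135 and 85.5 CPM with WT and 9.46 and 5.23 CPM with dHLH. Both dHLH libraries lay far below the other 4. The log2 change was -3.85 against YUMM2.1-EV (SE 0.42, edgeR adjusted p = 0.00333) and -3.88 against YUMM2.1-WT (SE 0.42, edgeR adjusted p = 0.00320). Within EV and within WT, replicate 1 was the higher library for Erbb3 and the lower for Axl and Fgfr1, which is the split between libraries given above. The dHLH pair was split the same way for Erbb3 and Axl, but not for Fgfr1. Sox10 moved with Erbb3, at 501 and 484 CPM with EV, 541 and 432 CPM with WT and 66.2 and 72.9 CPM with dHLH, and its part in the result was not tested. It is on the list of 7 melanocytic markers, of which 2 were tested. With dHLH against EV, 1 of the 2 passed as lower and 0 as higher, where 13.2% of all genes passed. Of the 5 undifferentiated or neural crest state markers, none passed as higher with dHLH than with EV, and 2 passed as lower, Ngfr (-2.14) and Nes (-0.62). Chosen after its values were seen, Sox9 was 18.3 and 87.2 CPM with EV and 19.6 and 86.2 CPM with WT. It was 210 and 270 CPM with dHLH, above the other 4 libraries, but did not pass against EV. Egfr did not pass, at 3.23 to 6.80 CPM in the EV and WT libraries and 3.88 and 3.68 CPM with dHLH.

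Fgfr1 and Pdgfrb, both receptors of mesenchymal cells, were low before and higher with dHLH. Fgfr1 was 4.07 and 9.27 CPM with EV, 3.25 and 8.78 CPM with WT and 42.7 and 24.1 CPM with dHLH. It rose by 2.35 against YUMM2.1-EV (SE 0.55, edgeR adjusted p = 0.0362) and by 2.5 against YUMM2.1-WT (SE 0.56, edgeR adjusted p = 0.0301). Pdgfrb was 0.830 and 2.80 CPM with EV, 4.02 and 2.99 CPM with WT and 11.2 and 6.18 CPM with dHLH, with no overlap between dHLH and the rest. It rose by 2.30 against YUMM2.1-EV (SE 0.57, edgeR adjusted p = 0.0415) and did not pass against YUMM2.1-WT (1.31, SE 0.53, edgeR adjusted p = 0.163). Fibroblast markers rose with them. Of 6 on the list 3 were tested, and all 3 were higher in YUMM2.1-dHLH than in YUMM2.1-EV, Col1a1 by 4.44, Col1a2 by 5.08 and Col3a1 by 0.70. Their part in the Pdgfrb and Fgfr1 differences was not tested.

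Met depended on the fit. It was 21.1 and 34.9 CPM with EV, 26.4 and 37.7 CPM with WT and 48.4 and 70.2 CPM with dHLH, so that dHLH lay above the rest and replicate 2 lay above replicate 1 in each group. Without the replicate number as a block it did not pass (1.09, SE 0.31, edgeR adjusted p = 0.0588 against YUMM2.1-EV, and 0.90, SE 0.30, edgeR adjusted p = 0.103 against YUMM2.1-WT). With the replicate block it passed in both (1.11, edgeR adjusted p = 0.000212, and 0.89, edgeR adjusted p = 0.000704), and the number of genes called against YUMM2.1-EV went from 1894 to 3877. Pdgfra was 1.24 and 3.45 CPM with EV and 6.72 and 3.57 CPM with dHLH and did not pass (1.17, SE 0.59, edgeR adjusted p = 0.248).

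With the labels of YUMM2.1-EV replicate 2 and YUMM2.1-WT replicate 1 exchanged, all 9 calls for dHLH kept their direction and passed. Against YUMM2.1-EV, Axl was then 1.25, Mertk -1.08, Erbb3 -4.19, Pdgfrb 1.85 and Fgfr1 3.19, and Met (1.32, edgeR adjusted p = 0.00147) and Pdgfra (1.89, edgeR adjusted p = 0.00994) passed as well. With both libraries left out, Axl against YUMM2.1-WT no longer passed (0.83, edgeR adjusted p = 0.129) while Axl against YUMM2.1-EV did (1.27). Single libraries also mattered. Axl and Pdgfrb against YUMM2.1-EV passed in 1 of 6 fits with a library left out, the fit without YUMM2.1-EV replicate 2, and lost the call without each other library. Fgfr1 against YUMM2.1-EV lost its call without YUMM2.1-EV replicate 1 or either YUMM2.1-dHLH library, and Erbb3 kept its call in all such fits. Against YUMM2.1-WT, Axl lost its call without either YUMM2.1-WT or either YUMM2.1-dHLH library, Mertk without YUMM2.1-WT replicate 1, and Fgfr1 without YUMM2.1-WT replicate 1 or YUMM2.1-dHLH replicate 1.

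Wild-type Bmal1 in the same cells was not separated from the empty vector. For YUMM2.1-WT against YUMM2.1-EV, edgeR called 0 of 9 receptors and 0% of 14323 genes. None of the 9 had an unadjusted p under 0.05, 98 genes did, and DESeq2 called 1 gene and no receptor. Axl changed by -0.05 (SE 0.24), Erbb3 by 0.03 (SE 0.35) and Fgfr1 by -0.15 (SE 0.57), and the libraries overlapped for every receptor but Pdgfrb. With the labels exchanged Axl was 0.48, Erbb3 -0.76 and Fgfr1 1.29, with edgeR adjusted p = 0.231, 0.142 and 0.157, and 101 genes passed. With both libraries left out Axl was 0.44, Erbb3 -0.71 and Fgfr1 1.09, each with edgeR adjusted p = 1, and 40 genes passed.

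In the hairpin experiment, where the same constructs were measured in separate YUMM2.1 libraries with shNC, both constructs differed from the empty vector. Axl, Fgfr1 and Pdgfrb were higher and Erbb3 lower with WT and with dHLH. Mertk was lower with dHLH, and Tyro3 was higher with WT. Of 9 receptors tested, 5 passed for WT, where 22.3% of 14848 genes passed, 5 for dHLH, where 26.4% did, and 2 for dHLH against WT, where 1.91% did. These 3 comparisons share libraries. The 3 fibroblast markers tested were also higher with WT (median 2.59) and with dHLH (median 5.48). Of the 5 undifferentiated or neural crest state markers 1 was higher, Sox9, and 4 were lower with each construct (medians -0.52 and -0.84). The part of these markers in the receptor differences was not tested.

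Axl was 634 and 607 CPM in EV with shNC, 1009 and 1104 CPM in WT and 946 and 973 CPM in dHLH. All 4 construct libraries lay above both EV libraries, by 0.77 for WT (SE 0.09, edgeR adjusted p = 9.74e-06) and 0.64 for dHLH (SE 0.09, edgeR adjusted p = 4.91e-05). Mertk was 108 and 114 CPM in EV, 83.2 and 92.1 CPM in WT and 59.6 and 63.1 CPM in dHLH, 3 groups that did not overlap, but only the dHLH change passed (-0.85, SE 0.14, edgeR adjusted p = 0.000204), not that of WT (-0.33, SE 0.14, edgeR adjusted p = 0.0952). The difference between dHLH and WT in Mertk did not pass either (-0.51, edgeR adjusted p = 0.0816), though DESeq2 called it (adjusted p = 0.0326). Tyro3 was 6.78 and 8.07 CPM in EV, 13.6 and 22.0 CPM in WT and 11.1 and 13.1 CPM in dHLH, and passed for WT (1.26, SE 0.33, edgeR adjusted p = 0.0108), a call lost without EV shNC replicate 1, EV shNC replicate 2 or WT shNC replicate 2.

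Erbb3 stepped down from EV to WT to dHLH. It was 40 and 33.2 CPM in EV with shNC, 6.66 and 13.5 CPM in WT and 2.92 and 2.43 CPM in dHLH, with no overlap. The change was -1.84 for WT (SE 0.25, edgeR adjusted p = 4.29e-05), -3.73 for dHLH (SE 0.29, edgeR adjusted p = 3.15e-08) and -1.89 between dHLH and WT (SE 0.30, edgeR adjusted p = 0.00167), where the last call was lost without WT shNC replicate 2 (-1.28). Fgfr1 stepped up in the same order, at 7.89 and 9.87 CPM in EV, 29.9 and 27.2 CPM in WT and 45.6 and 47.0 CPM in dHLH. It rose by 1.68 for WT (SE 0.18, edgeR adjusted p = 2.56e-06), by 2.38 for dHLH (SE 0.18, edgeR adjusted p = 1.66e-08) and by 0.70 between them (SE 0.16, edgeR adjusted p = 0.0275), where that last call was lost without any 1 of the 4 libraries compared.

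Pdgfrb was 2.34 and 1.57 CPM in EV with shNC, 5.30 and 5.47 CPM in WT and 13.1 and 9.08 CPM in dHLH. It rose by 1.46 for WT (SE 0.42, edgeR adjusted p = 0.0186) and by 2.52 for dHLH (SE 0.41, edgeR adjusted p = 0.000156), and the step from WT to dHLH did not pass (1.06, edgeR adjusted p = 0.189). The WT call was lost without EV shNC replicate 2, WT shNC replicate 1 or WT shNC replicate 2. Met lay at 66.2 to 84.7 CPM in these 6 libraries and did not pass (dHLH against EV -0.18, SE 0.13), with a direction opposite to that in the cells without a hairpin. Pdgfra likewise was lower with dHLH here and did not pass (-1.05, SE 0.39, edgeR adjusted p = 0.0563). The level of several receptors in EV cells itself differed between the experiments, with Erbb3 at 76.4 to 138 CPM without a hairpin and 33.2 to 40 CPM with shNC, and Met at 21.1 to 34.9 against 75.5 to 82.7 CPM. The hairpin vector, puromycin selection and the time of the experiment cannot be told apart there.

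**Figure D4:**
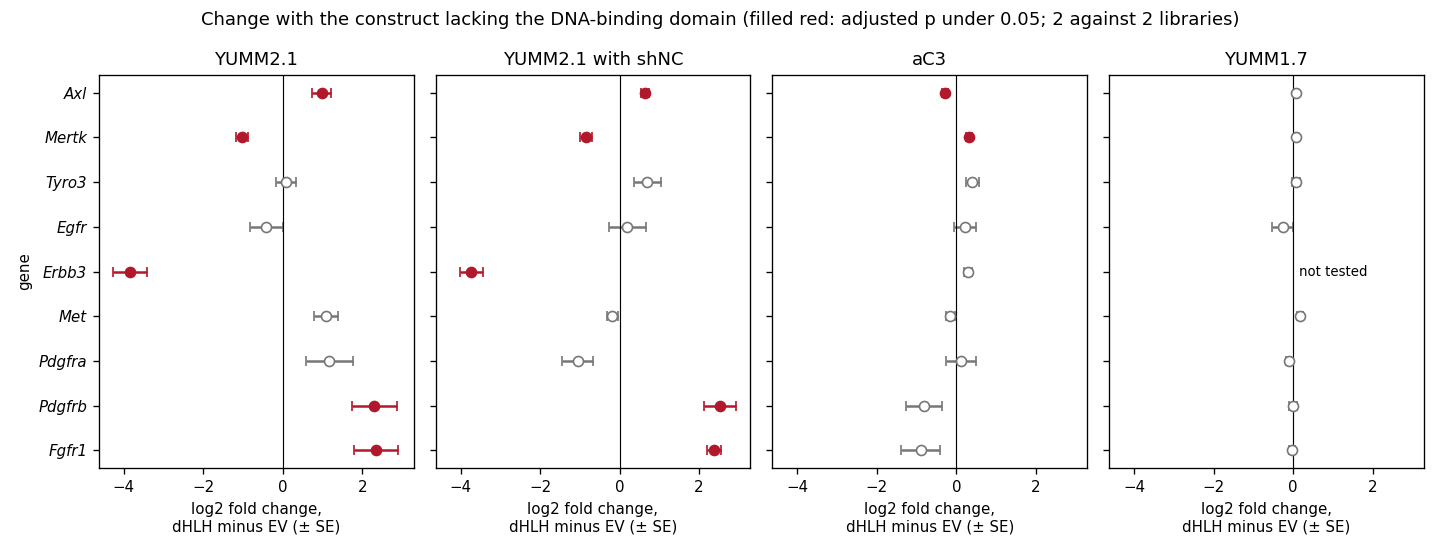
Log2 fold change of dHLH minus EV with its SE for 9 receptors in YUMM2.1, YUMM2.1 with shNC, aC3 and YUMM1.7, 2 against 2 libraries each, with filled red points for an adjusted p under 0.05. Erbb3 sits at -3.85 and -3.73 in the YUMM2.1 panels and at 0.29 in aC3, and Fgfr1 at 2.35, 2.38, -0.89 and -0.02 from left to right.

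In the Bmal1-null clone aC3 the same constructs came with small changes. Axl was lower with WT and with dHLH than with EV, Erbb3 was higher with WT and Mertk was higher with dHLH. Fgfr1, Pdgfrb, Met and Pdgfra did not pass. For aC3-WT against aC3-EV 2 of 9 receptors passed, where 11.2% of 13790 genes did, for aC3-dHLH against aC3-EV 2 of 9, where 10.9% did, and for aC3-dHLH against aC3-WT 0 of 9 with edgeR, where 0.877% did. In that last comparison 4 receptors had an unadjusted p under 0.05 and DESeq2 called none.

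Axl was 541 and 541 CPM in aC3-EV, 370 and 365 CPM in aC3-WT and 442 and 450 CPM in aC3-dHLH. The 3 groups did not overlap, with WT lowest. It changed by -0.56 with WT (SE 0.08, edgeR adjusted p = 0.000690) and by -0.29 with dHLH (SE 0.08, edgeR adjusted p = 0.0330). Erbb3 was 85.6 and 83.4 CPM in aC3-EV, 123 and 132 CPM in aC3-WT and 113 and 95 CPM in aC3-dHLH. It rose by 0.59 with WT (SE 0.10, edgeR adjusted p = 0.00133) and did not pass with dHLH (0.29, SE 0.10, edgeR adjusted p = 0.0706). Mertk was 98.3 and 98.7 CPM in aC3-EV, 107 and 117 CPM in aC3-WT and 122 and 126 CPM in aC3-dHLH and rose with dHLH (0.32, SE 0.08, edgeR adjusted p = 0.0285). The Axl and Mertk calls for dHLH were lost without either aC3-EV or either aC3-WT library, and Mertk also without aC3-dHLH replicate 2, and all 4 calls were lost when the spread was estimated over all 40 libraries.

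Fgfr1 was near its lowest YUMM level in aC3, at 2.06 and 1.95 CPM with EV, 2.74 and 2.57 CPM with WT and 0.882 and 1.29 CPM with dHLH. dHLH gave the lowest pair, without passing (-0.89, SE 0.49, edgeR adjusted p = 0.277). Pdgfrb had the same order, at 2.23 and 2.41 CPM, 2.64 and 2.67 CPM, and 1.47 and 1.18 CPM, and did not pass with dHLH (-0.81, SE 0.46, edgeR adjusted p = 0.288). At these levels a library holds few reads of either gene.

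In YUMM1.7 cells few receptor differences passed with either construct. Of 8 receptors tested, edgeR called 0 for WT against EV (2 with an unadjusted p under 0.05, DESeq2 calling Axl), where 0.138% of 13816 genes passed, and 0 for dHLH against EV (1 with an unadjusted p under 0.05, DESeq2 calling none), where 0.63% did. It called 1 for dHLH against WT, where 2.57% of genes passed. Axl was 714 and 700 CPM in YUMM1.7-EV, 611 and 619 CPM in YUMM1.7-WT and 724 and 746 CPM in YUMM1.7-dHLH. WT was the lowest pair, and dHLH was 0.25 above it (SE 0.04, edgeR adjusted p = 0.00411), a call lost without YUMM1.7-dHLH replicate 2 and in the fit of all 40 libraries. Mertk (176 to 194 CPM), Pdgfra (94.3 to 112 CPM), Pdgfrb (35.4 to 39.3 CPM) and Fgfr1 (59.7 to 66.6 CPM) stayed in narrow ranges over the 6 libraries.

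The dHLH change of several receptors itself differed between backgrounds, by a test of the difference in 1 fit of the 18 libraries without a hairpin. Between aC3 and YUMM2.1 it differed for 6 of 9 receptors, where 15.5% of 15385 genes passed. The largest was Erbb3, whose change was 4.14 higher in aC3 (SE 0.40, edgeR adjusted p = 4.85e-06). The change was lower in aC3 for Fgfr1 (-3.25, SE 0.74, edgeR adjusted p = 0.00714), Pdgfrb (-3.14, SE 0.58, edgeR adjusted p = 0.00165), Axl (-1.25, SE 0.23, edgeR adjusted p = 0.00135) and Met (-1.23, SE 0.30, edgeR adjusted p = 0.00972), and higher for Mertk (1.37, SE 0.15, edgeR adjusted p = 1.35e-05). Between YUMM1.7 and YUMM2.1 it differed for Mertk, Axl, Pdgfrb and Fgfr1, 4 of 9 receptors, where 12.4% of genes passed. Between YUMM1.7 and aC3 it differed for 0 of 9 receptors with edgeR, 0 had an unadjusted p under 0.05, and DESeq2 called none, where 0.117% of genes passed. All 10 kept their call with the 2 doubted labels exchanged and with both libraries left out, and Axl between YUMM1.7 and YUMM2.1 (-0.90, SE 0.22, edgeR adjusted p = 0.0151) lost it without YUMM2.1-EV replicate 1, YUMM2.1-dHLH replicate 2, YUMM1.7-EV replicate 1 or either YUMM1.7-dHLH library.

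The WT change differed between backgrounds for 0 of 9 receptors with edgeR as labelled, in each of 3 pairs of backgrounds, where at most 0.507% of genes passed. In each pair 1 receptor had an unadjusted p under 0.05, and DESeq2 called none. With the doubted labels exchanged, the WT change of Axl was 1.03 lower in aC3 than in YUMM2.1 (-1.03, edgeR adjusted p = 0.000254) and that of Erbb3 1.36 higher (edgeR adjusted p = 0.000419). With both libraries left out these were -1.01 (edgeR adjusted p = 0.0119) and 1.29 (edgeR adjusted p = 0.0197). Between YUMM1.7 and YUMM2.1, Axl passed with the labels exchanged (-0.67, edgeR adjusted p = 0.0182) and no receptor passed with both left out. The calls for these differences therefore turned on 2 libraries.

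Few receptors passed with a hairpin against Myh9, and those that did are given for EV, WT and dHLH cells in turn. In EV cells Fgfr1 rose with both hairpins and Axl with shMyh9#2. In WT cells Erbb3 fell with shMyh9#2. In dHLH cells shMyh9#4 came with higher Mertk and lower Fgfr1 and Pdgfrb. Of 9 receptors, edgeR called 2 in EV cells with shMyh9#2, where 6.65% of 14848 genes passed, and 1 with shMyh9#4, where 1.71% did. It called 1 in WT cells with shMyh9#2, where 4.76% did, and 3 in dHLH cells with shMyh9#4, where 15.1% did. It called 0 in WT cells with shMyh9#4 (2 at an unadjusted p under 0.05), where 0.236% did, and 0 in dHLH cells with shMyh9#2 (0 at an unadjusted p under 0.05), where 0.559% did, and DESeq2 called 0 in both. Each hairpin is compared with the same shNC libraries.

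In EV cells, Fgfr1 was 7.89 and 9.87 CPM with shNC, 13.6 and 19.4 CPM with shMyh9#2 and 19.2 and 18.8 CPM with shMyh9#4. All 4 libraries with a Myh9 hairpin lay above both controls. Fgfr1 rose by 0.89 (SE 0.18, edgeR adjusted p = 0.00629) and 1.09 (SE 0.18, edgeR adjusted p = 0.00224), calls that were lost without EV shNC replicate 1 and, for shMyh9#2, without EV shMyh9#2 replicate 2. Axl was 634 and 607 CPM with shNC, 821 and 843 CPM with shMyh9#2 and 633 and 716 CPM with shMyh9#4, and rose with shMyh9#2 alone (0.43, SE 0.09, edgeR adjusted p = 0.00849). That call was lost without any of the 4 libraries compared. Erbb3 was 40 and 33.2 CPM with shNC, 20.4 and 21.1 CPM with shMyh9#2 and 23 and 27.7 CPM with shMyh9#4, lower in all 4 but not past the test (-0.81, SE 0.24, edgeR adjusted p = 0.0504, and -0.53, SE 0.24, edgeR adjusted p = 0.441).

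In WT cells, Erbb3 was 6.66 and 13.5 CPM with shNC, 3.27 and 3.41 CPM with shMyh9#2 and 8.38 and 9.41 CPM with shMyh9#4. The shMyh9#2 pair was lower by 1.61 on the log2 scale (-1.61, SE 0.28, edgeR adjusted p = 0.00204), and without WT shNC replicate 2 the value was -1.0 and did not pass. Fgfr1, at 29.9 and 27.2 CPM with shNC, was 39.4 and 35.5 CPM with shMyh9#2 and 39.9 and 38.8 CPM with shMyh9#4, above both controls in all 4 libraries without passing (0.39, edgeR adjusted p = 0.192, and 0.46, edgeR adjusted p = 0.233). Axl did not pass with either hairpin (-0.15 and -0.29), and its shMyh9#2 change was lower in WT than in EV cells (-0.57, SE 0.13, edgeR adjusted p = 0.0158). That was the only receptor of 9 to differ so, where 5.18% of genes did, and the call was lost in 7 of 18 fits with a library left out and in the fit of all 40 libraries (edgeR adjusted p = 0.184), which also lost the EV calls of Axl (0.146) and Fgfr1 (0.0874 and 0.0922). Those 7 left out EV shNC replicates 1 and 2, EV shMyh9#2 replicates 1 and 2, WT shNC replicate 2 and WT shMyh9#2 replicates 1 and 2, each in turn.

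In dHLH cells with shMyh9#4, Mertk was 89.3 and 105 CPM against 59.6 and 63.1 CPM with shNC and 76.6 and 54.9 CPM with shMyh9#2. It rose by 0.69 with shMyh9#4 (SE 0.14, edgeR adjusted p = 0.00486) and stayed below the 108 and 114 CPM of EV cells with shNC. Fgfr1 was 29.9 and 26.6 CPM against 45.6 and 47.0 CPM with shNC and 48.7 and 52.6 CPM with shMyh9#2, so that the hairpins lay on opposite sides of the control. It fell with shMyh9#4 (-0.70, SE 0.17, edgeR adjusted p = 0.0102), and Pdgfrb, at 5.07 and 4.17 CPM against 13.1 and 9.08 CPM, fell too (-1.27, SE 0.40, edgeR adjusted p = 0.0388). The 2 shMyh9#4 libraries held 3643332 and 6001340 counts, and Pdgfrb had 18 and 24 counts in them. The Mertk and Fgfr1 calls were lost without dHLH shNC replicate 1 or dHLH shMyh9#4 replicate 2, and that of Pdgfrb without each of the 4 libraries compared, WT shNC replicate 2 or WT shMyh9#2 replicate 2. Myh9 itself was reduced less by shMyh9#4 than by shMyh9#2. In dHLH cells it was 908 and 877 CPM with shNC, 678 and 635 CPM with shMyh9#4 and 291 and 263 CPM with shMyh9#2. EV cells with shNC held 703 and 665 CPM. The part of the amount of Myh9 in the difference between hairpins was not tested.

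The shMyh9#4 change in dHLH cells differed from that in EV cells for 3 of 9 receptors, where 8.51% of genes passed. It was higher for Mertk (0.73, SE 0.20, edgeR adjusted p = 0.0300) and lower for Pdgfrb (-2.40, SE 0.58, edgeR adjusted p = 0.0181) and Fgfr1 (-1.79, SE 0.25, edgeR adjusted p = 0.000388). The shMyh9#2 change in dHLH against EV cells differed for 0 of 9 with edgeR (2 at an unadjusted p under 0.05, DESeq2 calling Axl), where 3.29% of genes passed, and the shMyh9#4 change in WT against EV cells for 0 (2 at an unadjusted p under 0.05, DESeq2 calling none), where 0.741% did. The Fgfr1 difference passed in all 18 fits with a library left out. The Mertk difference was lost in 7 of them, those without EV shNC replicate 1 or 2, EV shMyh9#4 replicate 1 or 2, dHLH shNC replicate 1 or 2, or dHLH shMyh9#4 replicate 2. The Pdgfrb difference was lost in 4, without EV shNC replicate 2, EV shMyh9#4 replicate 2, dHLH shNC replicate 1 or dHLH shMyh9#4 replicate 2.

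In B16-F10, the Bmal1 KO clone had lower Axl and Pdgfrb and higher Met than the control clone in both libraries, but no receptor passed with edgeR. It called 0 of 8 receptors tested and 0.44% of 14556 genes, and 3 receptors and 1715 genes had an unadjusted p under 0.05. DESeq2 called those 3 receptors. Bmal1 KO replicate 1 was most like Ctrl replicate 2 (r = 0.985) and less like KO replicate 2 (r = 0.973). Since each group is 1 clone, a difference between clones and an effect of Bmal1 cannot be told apart.

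**Figure D5:**
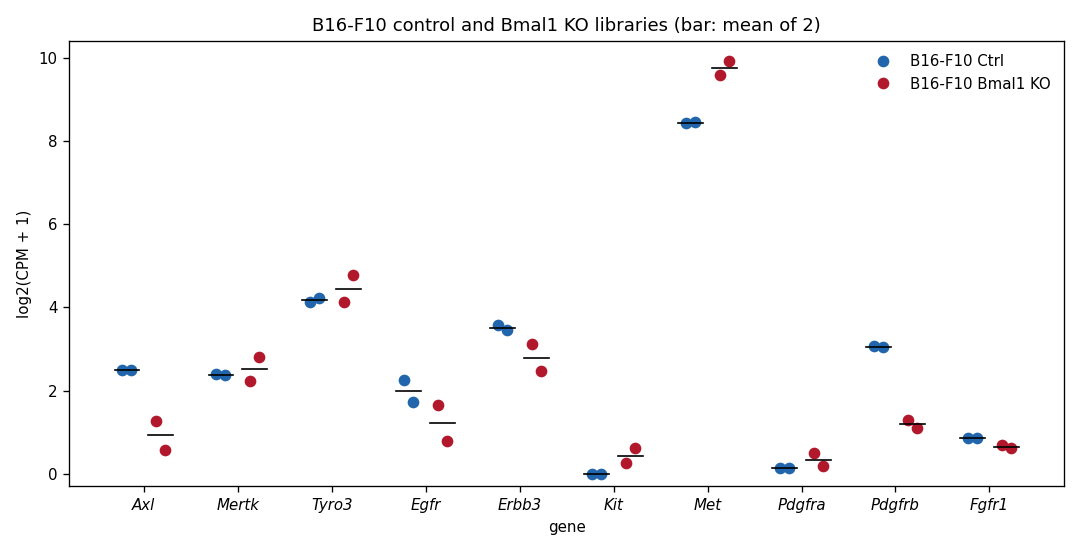
Log2(CPM + 1) of the 10 receptors in the 2 B16-F10 Ctrl (blue) and the 2 Bmal1 KO (red) libraries, with bars for the mean of 2. Met lies higher in both KO libraries (770 and 968 CPM against 344 and 349 CPM), Axl and Pdgfrb lie lower, and Kit has a count in the KO libraries alone.

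Met was 344 and 349 CPM in Ctrl and 770 and 968 CPM in KO, a log2 difference of 1.32 (SE 0.19, edgeR adjusted p = 0.0884, DESeq2 adjusted p = 1.16e-06). Pdgfrb was 7.43 and 7.22 CPM in Ctrl and 1.47 and 1.15 CPM in KO (-2.48, SE 0.32, edgeR adjusted p = 0.0633, DESeq2 adjusted p = 1.75e-05). Axl was 4.67 and 4.65 CPM in Ctrl and 1.43 and 0.479 CPM in KO (-2.28, SE 0.55, edgeR adjusted p = 0.231, DESeq2 adjusted p = 0.0236). The share of all genes without overlap between the clones was not counted. Separation of the libraries is therefore not read as a result for these 3. Without KO replicate 1, or without KO replicate 2, edgeR called all 3, and without KO replicate 1 it also called Tyro3, Egfr and Erbb3. In those fits the spread comes from the Ctrl pair alone and the lone KO library is assumed to vary like it. They called 6612 genes without KO replicate 1 and 2213 genes without KO replicate 2.

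Erbb3 was 10.9 and 9.93 CPM in Ctrl and 7.66 and 4.51 CPM in KO and did not pass (-0.78, SE 0.33, edgeR adjusted p = 0.438). Mertk (3.71 to 6.04 CPM) and Tyro3 (16.4 to 26.6 CPM) overlapped between the clones. Kit had 5 and 11 counts in KO (0.204 and 0.527 CPM) and none in either Ctrl library. Against a floor of 3 counts per library for Ctrl, or 0.144 CPM, the KO mean of Kit (0.366 CPM) was 2.54-fold higher. That ratio leaves out the counting error of the 5 and 11 counts, so it is not a lower bound. Kit did not pass the filter on low counts and was not tested. Pdgfra, at 0.0953 to 0.408 CPM, was not tested either.

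Among 39 other receptor tyrosine kinases, 15 were tested in YUMM2.1 without a hairpin, and 3 were higher and 3 lower with dHLH than with EV, where 13.2% of all genes passed. The largest fitted change was in Epha4, an ephrin receptor, at 3.31 and 4.52 CPM with dHLH and 0 and 0.323 CPM with EV (edgeR adjusted p = 0.0368). Chosen after its values were seen, Ddr2, a collagen receptor, rose by 1.76 (edgeR adjusted p = 0.0171), and its paralog Ddr1 fell (-0.63, edgeR adjusted p = 0.0371). With shNC, 4 of 16 were higher and 4 lower, where 26.4% of all genes passed, led again by Epha4 (3.40 and 5.03 CPM against 0.123 and 0 CPM, edgeR adjusted p = 0.00355). The median log2 change of the tested ones was 0.08 without a hairpin and -0.03 with shNC, beside -0.01 and 0.02 for all genes. Of 19 tested between lines, 7 were higher and 6 lower in YUMM1.7-EV than in YUMM2.1-EV, where 37.1% of all genes passed. Fgfr2, a paralog of Fgfr1, had 1.16 and 1.78 CPM in YUMM1.7-EV and no count in YUMM2.1-EV (edgeR adjusted p = 0.00709). In B16-F10 Ctrl, Epha3 was 171 and 153 CPM, against 0.0830 and 0 CPM in YUMM2.1-EV (edgeR adjusted p = 5.72e-09). In the comparisons of aC3-dHLH with aC3-WT and of YUMM1.7 constructs with each other none passed with edgeR.

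Ligands of these receptors were counted in the same libraries. Gas6, a ligand of all 3 TAM receptors, had at most 0.306 CPM in any library. Pros1, a ligand of Mertk and Tyro3, was 12.3 and 15.6 CPM in EV with shNC, 30.4 and 23.8 CPM in WT and 28.3 and 31.9 CPM in dHLH. It rose by 0.96 with WT (edgeR adjusted p = 0.00192) and by 1.11 with dHLH (edgeR adjusted p = 0.000378). Pros1 also rose in aC3-WT against aC3-EV (0.81, edgeR adjusted p = 0.0039). Of 14 ligands tested with shNC, 5 were higher and 5 lower with dHLH than with EV, and 3 were higher and 6 lower with WT, where 26.4% and 22.3% of all genes passed. Those lower included the Egfr ligands Areg (-1.33 with dHLH, edgeR adjusted p = 0.00112), Ereg (-1.24, edgeR adjusted p = 0.00116), Btc (-1.21, edgeR adjusted p = 0.000542) and Hbegf, and those higher included Fgf10 (1.32 and 0.973 CPM with dHLH and no count with EV, edgeR adjusted p = 0.0162) and Pdgfc (1.99), a ligand of Pdgfra. Nrg1, a ligand of Erbb3, was 11.5 and 12.2 CPM in dHLH and 7.28 and 5.72 CPM in EV with shNC (0.87, edgeR adjusted p = 0.0415). The median of the 14 was -0.19 for dHLH, beside 0.02 for all genes. Without a hairpin, 2 of 15 ligands were higher and 1 lower in YUMM2.1-dHLH than in YUMM2.1-EV, where 13.2% of all genes passed, and the median was 0.38, beside -0.01 for all genes.

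Between lines, most ligands were lower in B16-F10. Of 16 tested, 13 were lower and 1 higher in B16-F10 Ctrl than in YUMM2.1-EV, where 54.3% of all genes passed. Areg had no count in any B16-F10 library, against 14.7 and 10.03 CPM in YUMM2.1-EV (edgeR adjusted p = 7.07e-07). In aC3, Kitl, which encodes stem cell factor, the ligand of Kit, fell with WT (-0.48, edgeR adjusted p = 0.0046) and with dHLH (-0.46, edgeR adjusted p = 0.00672). In YUMM1.7, Areg (-0.71, edgeR adjusted p = 0.0141) and Btc were lower in dHLH than in WT.

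Of 18 adaptors and inhibitors of receptor tyrosine kinases, none was higher and 6 were lower with dHLH in the shNC cells, where 26.4% of all genes passed, and none was higher and 4 lower in the cells without a hairpin, where 13.2% did. The medians were -0.41 and -0.23, beside 0.02 and -0.01 for all genes. Chosen after their values were seen, Sh2b3, an adaptor that restrains cytokine and growth factor signalling, was lower in both (-1.54 and -1.08), as were Spry2, an inhibitor of MAPK signalling downstream of these receptors (-0.96 and -0.80), Lrig3 (-0.76 and -0.89) and Cbl, which marks active receptors for degradation (-0.45 and -0.72). Spry4 led the list in the shNC cells (-1.56 with dHLH, -1.91 with WT). In aC3, Spry1 rose with WT (1.96, edgeR adjusted p = 0.000303) and 4 others of the 18 fell, where 11.2% of all genes passed. Lrig1, a negative regulator of ErbB receptors and Met, had no count in any B16-F10 library, against 18.2 and 10.5 CPM in YUMM2.1-EV (edgeR adjusted p = 1.42e-06).

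Over the means of the 20 groups, on log2(CPM + 1), the genes most like a receptor were found among 11704 genes. Axl was most like Ahnak (r = 0.994), Arhgap22 and S100a4 (both r = 0.991). Mertk was most like Wwtr1 (r = 0.979), Tbx3 and Prrx1, and Erbb3 most like L1cam (r = 0.984), Myh14 and Itgb3. Tyro3 was most like Dock6 (r = 0.941), Sesn3 and Rab11fip2, Egfr most like Acap2 (r = 0.894), Adcy6 and Dip2a, and Met most like Tmem248 (r = 0.957), Phf3 and Imp4. Pdgfrb was most like Ifi47 (r = 0.939), Col1a2 and Anapc13, and Fgfr1 most like Fam43a (r = 0.984). The 20 groups share 3 line origins, so they are not independent points.

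Within the 15 YUMM2.1 and aC3 groups, which share their origin and in part their experiment, group means of Axl and Erbb3 moved in opposite directions (r = -0.94). Axl and Fgfr1 moved together (r = 0.90) and Erbb3 and Fgfr1 in opposite directions (r = -0.93). Over all 20 groups the same pairs had r = -0.06, 0.68 and -0.72. Axl and Mertk had r = 0.89 over 20 groups and -0.57 within the 15, so that the pair ran together between lines and in opposite directions within the YUMM2.1-derived cells. These correlations are descriptions over group means.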

How the data were processed

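RNA of cultured mouse melanoma cells was made into QuantSeq FWD 3′ libraries and sequenced as single reads. The authors aligned reads with bowtie2 to mm10 and estimated expected counts per Ensembl gene with RSEM (version 1.2.3 per the submitters' processing notes). The counts used here were whole numbers. Whether counting used strand is not given in the sources used here. No column of per-sample values was left unused.

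Library totals of 3643332 to 22970049 counts set the precision of the counts. The SE of a log2 change was its size divided by the square root of the F statistic of its edgeR test. It therefore includes spread between libraries. The floor used for Kit covers counting error in the Ctrl libraries only. Genes were filtered and scaled (TMM) within each fit and tested with edgeR (4.0.16, quasi-likelihood test, R 4.3.3) with Benjamini-Hochberg adjustment over all genes tested and a threshold of 0.05. Fits were made per line, over the hairpin libraries, over the control groups of the lines, and over the 18 libraries without a hairpin for differences between backgrounds. DESeq2 (1.42.0), other filters, a replicate block, a fit of all 40 libraries, a minimum log2 change of 1, each library left out and, for the doubted YUMM2.1 libraries, labels exchanged or both left out were alternatives. The study describes the 2 libraries of a group as biological duplicates. Same-numbered YUMM2.1 libraries without a hairpin deviated together in 3 of 3 pairs of groups (r 0.181 to 0.393). The main fits used the group alone and did not pair libraries, and the replicate block was an alternative.

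All 10 receptors are named. Of the lists of other receptors, ligands and adaptors, the gene with the largest called change in a comparison and ligands or paralogs of a receptor are named, and any other gene is said to be chosen after its values were seen. The receptors and lists were chosen with earlier results of these data known. Promoters come from RefSeq (GRCm38.p6) and held 7 of the 10 receptors, not Erbb3, Fgfr1 or Pdgfrb. An allele of the YUMM lines and some of the genes most like Pdgfra and Fgfr1 are not reported here.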

Additional observations from a re-analysis of the deposited data

Results flagged for a closer look

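The dHLH change (dHLH minus EV) differed between cell backgrounds by a test of the difference itself. Between aC3 and YUMM2.1 the difference in log2 change was -1.25 for Axl, 1.37 for Mertk, 4.14 for Erbb3, -1.23 for Met, -3.14 for Pdgfrb and -3.25 for Fgfr1. Between YUMM1.7 and YUMM2.1 it was -0.90 for Axl, 1.12 for Mertk, -2.35 for Pdgfrb and -2.39 for Fgfr1.

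The change with a hairpin against Myh9 differed between constructs by the same kind of test. With shMyh9#2 the change of Axl was lower in WT than in EV cells, by a difference of -0.57. With shMyh9#4 the change in dHLH cells differed from that in EV cells by 0.73 for Mertk, -2.40 for Pdgfrb and -1.79 for Fgfr1.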

How the results depend on the processing

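No result changed direction past the test under any alternative. The number of receptor calls in B16-F10 was 0, and 3 with DESeq2, 3 with no filter on low counts, 3 in the fit of all 40 libraries and 2 with the replicate block. Leaving out a library gave 0 to 6, with 6 without Bmal1 KO replicate 1 and 3 without Bmal1 KO replicate 2. In aC3 the 4 calls became 0 in the fit of all 40 libraries and 0 with a minimum log2 change of 1, and 2 to 5 with a library left out. The 2 were reached without either aC3-EV or either aC3-WT library. In YUMM2.1 the 9 calls became 14 in the fit of all 40 libraries and 4 to 10 with a library left out, with 4 without YUMM2.1-WT replicate 1 or YUMM2.1-dHLH replicate 1. In YUMM1.7 the 1 call became 2 with DESeq2, 2 with no filter, 0 in the fit of all 40 libraries and 0 with a minimum log2 change of 1, and 0 to 1 with a library left out (0 without YUMM1.7-dHLH replicate 2). Between lines the 25 calls became 31 with the doubted labels exchanged, 33 with both doubted libraries left out and 23 to 33 with a library left out. The 10 calls for a difference between backgrounds became 16 with the doubted labels exchanged and 9 to 13 with a library left out. In the hairpin experiment the 19 calls became 11 with a minimum log2 change of 1 and 14 to 23 with a library left out, and the 4 calls for a difference between constructs became 2 and 1 to 5 (1 without EV shNC replicate 2). The cause was not tested.

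With the replicate block the calls were 2 in B16-F10, 5 in aC3, 11 in YUMM2.1, 1 in YUMM1.7, 26 between lines, 11 between backgrounds, 19 in the hairpin experiment and 4 between constructs. Outside YUMM2.1 the libraries share only a number. There the block added Met and Pdgfrb in B16-F10, Erbb3 for aC3-dHLH, Met for aC3-EV against YUMM2.1-EV and Met for the dHLH difference between YUMM1.7 and YUMM2.1. It changed no other receptor call.

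Over all genes, calls in B16-F10 ran from 64 to 1952 over the alternatives, for aC3-WT from 195 to 2000, for aC3-dHLH from 160 to 1993, for YUMM2.1-dHLH against EV from 1196 to 4114 and for aC3-EV against YUMM2.1-EV from 163 to 1484. With 2 libraries a group, receptors near 1 CPM hold few counts.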
